A study of Mus musculus with 10 samples.

Results

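The genes described here are 9 transcriptional outputs of the circadian clock: the activators Dbp, Tef and Hlf, the repressor Nfil3, the E-box repressors Ciart, Bhlhe40 and Bhlhe41, and the enzymes Usp2 and Wee1. They were taken by symbol from a table of raw read counts with 24537 gene symbols. All 9 were found there, and all 9 were among the 13909 genes that passed the filter on low counts. RNA had been sequenced from whole livers of male mice that carried an adeno-associated virus of serotype 8, which delivered the small Cas9 of Staphylococcus aureus under the hepatocyte promoter TBG and a guide RNA under U6. The young group comprised 3 livers taken at 9 months with a Rosa26 guide given at 7 months, and the old control group comprised 3 livers taken at 25 months with the same guide given at 23 months. The third group comprised 4 livers labelled Cd44 knockout, also taken at 25 months with virus given at 23 months, of which replicates 1 and 2 carried guide 4 and replicates 3 and 4 carried guide 2. All 10 livers therefore came from mice that carried the nuclease. The TBG promoter limits editing to hepatocytes, while the RNA came from every cell of the liver. The labels give no hour of collection, feeding state or batch, and they pair no animals. Here "with age" stands for old control against young livers, and a difference in hour of collection or feeding between these groups cannot be told apart from age. Replicate numbers follow record order and only name a liver. The sample title of old control replicate 3 bears a number outside the run of the other titles, with a suffix. No label explains this. No label says that the samples of a group came from separate animals. The p-values therefore set group differences against the spread between these samples, estimated over all 10 livers together.

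In the clock of liver cells, CLOCK and BMAL1 (gene Arntl) bind E-boxes and switch on the Per and Cry genes, whose proteins then repress them, while the nuclear receptors ROR and REV-ERB (genes Nr1d1 and Nr1d2) act on ROR elements to drive and repress Arntl and Nfil3. DBP, TEF and HLF are basic leucine zipper activators of the proline and acidic amino acid-rich (PAR) family that bind D-boxes, and NFIL3, also called E4BP4, represses through the same sites. In rodent liver Dbp is among the most strongly rhythmic transcripts, Nfil3 peaks at the opposite part of the day, and the PAR factors are known for control of detoxifying enzymes.

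The first sequences shown are promoter windows of members with the E-box core CACGTG, the letters through which CLOCK and BMAL1 act. The last is that of Per3, whose level followed Dbp most closely among genes with a mean of at least 5 CPM. RefSeq windows on GRCm38.p6, which reach 250 bases upstream of a transcript start, were found for 7 of the 9 members. Of these 7, the E-box core was present in 3, Ciart, Bhlhe41 and Tef, against 6.02% of all 32851 windows. Members were counted by gene, with a match in any of its windows, while all such shares are per window. These are unlike measures. The ROR element core TAGGTCA was present on the reverse strand of Nfil3, 12 bases before the start, against 2.23% of all windows. The E-prime box CACGTT was present in 0 of the 7 members and in 3.85% of all windows. The D-box forms TTATGTAA and TTACGTAA, searched like the others on both strands, were present in 0 of the 7 members and in 0.931% of all windows. Bases that fall in annotated exons were left off. Capitals mark the E-box core in Ciart (chr3:95882252-95882478, minus strand) and Tef (chr15:81811164-81811413, plus strand, the second of 2 windows), and the D-box in Per3 (chr4:151044666-151044915, minus strand).
Ciart: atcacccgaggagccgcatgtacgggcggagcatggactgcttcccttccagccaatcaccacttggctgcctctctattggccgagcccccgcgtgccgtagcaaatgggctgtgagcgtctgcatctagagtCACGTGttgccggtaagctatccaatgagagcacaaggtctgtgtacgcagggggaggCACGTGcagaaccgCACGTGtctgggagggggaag
Tef: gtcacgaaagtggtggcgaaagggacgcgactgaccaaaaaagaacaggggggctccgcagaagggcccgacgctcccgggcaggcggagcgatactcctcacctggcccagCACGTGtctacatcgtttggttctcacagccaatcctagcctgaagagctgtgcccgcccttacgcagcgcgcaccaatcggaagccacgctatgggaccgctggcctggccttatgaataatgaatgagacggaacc
Per3: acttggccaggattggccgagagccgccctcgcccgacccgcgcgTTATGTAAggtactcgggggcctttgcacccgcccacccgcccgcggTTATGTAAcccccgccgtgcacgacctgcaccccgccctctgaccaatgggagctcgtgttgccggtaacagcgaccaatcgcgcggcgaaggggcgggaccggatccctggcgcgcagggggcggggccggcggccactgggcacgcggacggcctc
The 3 E-box cores of Ciart lie 116, 58 and 44 bases before its start, that of Tef lies 138 bases before, and the 2 D-boxes of Per3 lie 205 and 158 bases before. Among 11 core clock genes with a window Per3 alone held a D-box, and among the 10 other genes most or least like Dbp or Nfil3 that had a window 0 did. A match describes letters in a window and is not evidence of binding.

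Total counts ranged from 15821198 to 21710228 per liver, and 3 counts, taken as the floor of detection, corresponded to between 0.138 and 0.190 CPM, the usual scaling of counts to library size, here with trimmed-mean (TMM) factors. These floors cover counting error only. The lowest count of any member in any liver was 18, for Ciart in old control replicate 3. The first principal component of all genes held 50.1% of the variance and separated the young livers, at 42.2 to 64.5, from the rest, while old control replicate 3 lay closest to them at 5.69 and stood apart on the second component. Hepatocyte markers (Alb, Apoa1, Ttr, Tat and Cps1) were present in every liver, with a summed level of 88517 to 117352 CPM in young, 75548 to 100267 in old control and 80945 to 84753 in livers labelled knockout. Cd44 itself was at 16.6, 11.1 and 10.1 CPM in the young livers, 14.2, 29.99 and 25.9 in the old controls and 18.9, 29.0, 17.6 and 13.1 in the livers labelled knockout, where the log2 fold change against the old controls was -0.25 (edgeR adjusted p = 0.896). The targeted gene thus did not separate the old groups in whole-liver RNA, and directions below rest on the labels. Other cells of the liver also express Cd44, and their part in these values was not tested.

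Dbp was higher and Nfil3 lower in the old control livers than in the young ones. Across the old control and young livers 2 members rose, Dbp and Wee1, 1 fell, Nfil3, and 6 did not pass the test, in a comparison where 22.8% of all tested genes were called, 14.1% higher and 8.66% lower. The CPM of the groups did not overlap for these same 3 members, beside 37.7% of all genes tested, 19.7% higher and 18% lower. The median log2 fold change of the 9 members was 0.06, beside 0.04 over all genes tested. The share of members called, 3 of 9, is therefore to be read against a large general difference between these groups.

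Dbp (chr7:45705088-45710203 on GRCm38, plus strand) encodes the founding PAR activator. It was at 13.4, 2.64 and 24.7 CPM in young replicates 1 to 3 and at 86.4, 71.6 and 26.7 CPM in old control replicates 1 to 3. The groups did not overlap, but old control replicate 3 lay only just above young replicate 3, and young replicate 2 was far below every other liver. The log2 fold change was 2.18 (SE 0.59, 95% interval 0.88 to 3.48), a 4.52-fold rise, with an edgeR adjusted p of 0.0263. Without young replicate 2 the log2 fold change was 1.69 with an adjusted p of 0.0574, without young replicate 3 it was 2.93 with an adjusted p of 0.0293, and the call was also lost without young replicate 1 (0.0745) and without old control replicates 1 (0.0573) and 2 (0.0762). In the livers labelled knockout Dbp was at 78.3, 87.9, 74.3 and 91.0 CPM, a narrow range that lay above every young liver. Against the young livers this was 6.09-fold higher (log2 fold change 2.61, SE 0.58, adjusted p = 0.0248), a call that missed the threshold when young replicate 1 or 2 or knockout replicate 2, 3 or 4 was left out (adjusted p from 0.0542 to 0.0715).

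Exons of Dbp overlap those of Sphk2, a sphingosine kinase gene on the opposite strand, over 539 bases or 18.0% of the exonic length of Dbp. Because the use of strand in counting is not given in the sources used here, reads from this stretch cannot be assigned with certainty. Sphk2 was at 68.0, 45.6 and 69.2 CPM in young livers and at 124, 90.8 and 77.2 CPM in old controls. Its log2 fold change was 0.67 (edgeR adjusted p = 0.0315), against 2.18 for Dbp. In every liver Sphk2 was at a higher CPM than Dbp. How many counts of Dbp came from the shared stretch was not tested.

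Tef (chr15:81802421-81826863, plus strand), which encodes thyrotroph embryonic factor, had its lowest level in the same liver as Dbp and a smaller range among the livers. It was at 91.5, 36.2 and 91.0 CPM in young and at 184, 127 and 88.3 CPM in old control livers, so the groups overlapped. The log2 fold change was 0.87 (SE 0.33, interval 0.14 to 1.60) with an edgeR adjusted p of 0.0801, which missed the threshold. Without old control replicate 3 it was 1.09 with an adjusted p of 0.0251, and with DESeq2 on all livers the adjusted p was 0.0409. These were the only 2 of 11 alternatives past the threshold. The other 9 were not past it, and over all 11 the values ran from 0.54 to 1.09 with an adjusted p of up to 0.243. The livers labelled knockout, at 141, 166, 136 and 170.3 CPM, lay above every young liver, and the log2 fold change there was 1.07 (SE 0.32, adjusted p = 0.051, and 0.00924 with DESeq2). It was past the threshold in 3 of 12 alternatives, with an adjusted p of up to 0.147.

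Hlf (chr11:90336536-90390895, minus strand), the third PAR activator, differed little between the young and old control livers. It was at 40.8, 30.3 and 38.8 CPM in young, 39.5, 38.5 and 33.5 CPM in old control and 50.6, 46.9, 39.99 and 44.8 CPM in livers labelled knockout. The age difference was 0.02 on the log2 scale, with an interval of -0.29 to 0.33 that leaves out a change as large as the estimate for Dbp.

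Nfil3 (chr13:52967209-52981073, minus strand) ran the other way. It was at 50.1, 76.8 and 49.9 CPM in young livers, at 25.8, 19.1 and 29.5 CPM in old controls and at 17.7, 15.2, 25.7 and 17.6 CPM in livers labelled knockout. Every old liver lay below every young liver, and young replicate 2, the lowest for Dbp, was the highest for Nfil3. The log2 fold change with age was -1.25 (SE 0.24, interval -1.77 to -0.73, edgeR adjusted p = 0.00936), and that of livers labelled knockout against young was -1.63 (SE 0.22, interval -2.11 to -1.15, adjusted p = 0.00714). Among the members, Nfil3 was past the threshold in each of the 11 alternatives run for age and the 12 run for old knockout against young, with an adjusted p of at most 0.0494, reached without young replicate 2.

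**Figure D1:**
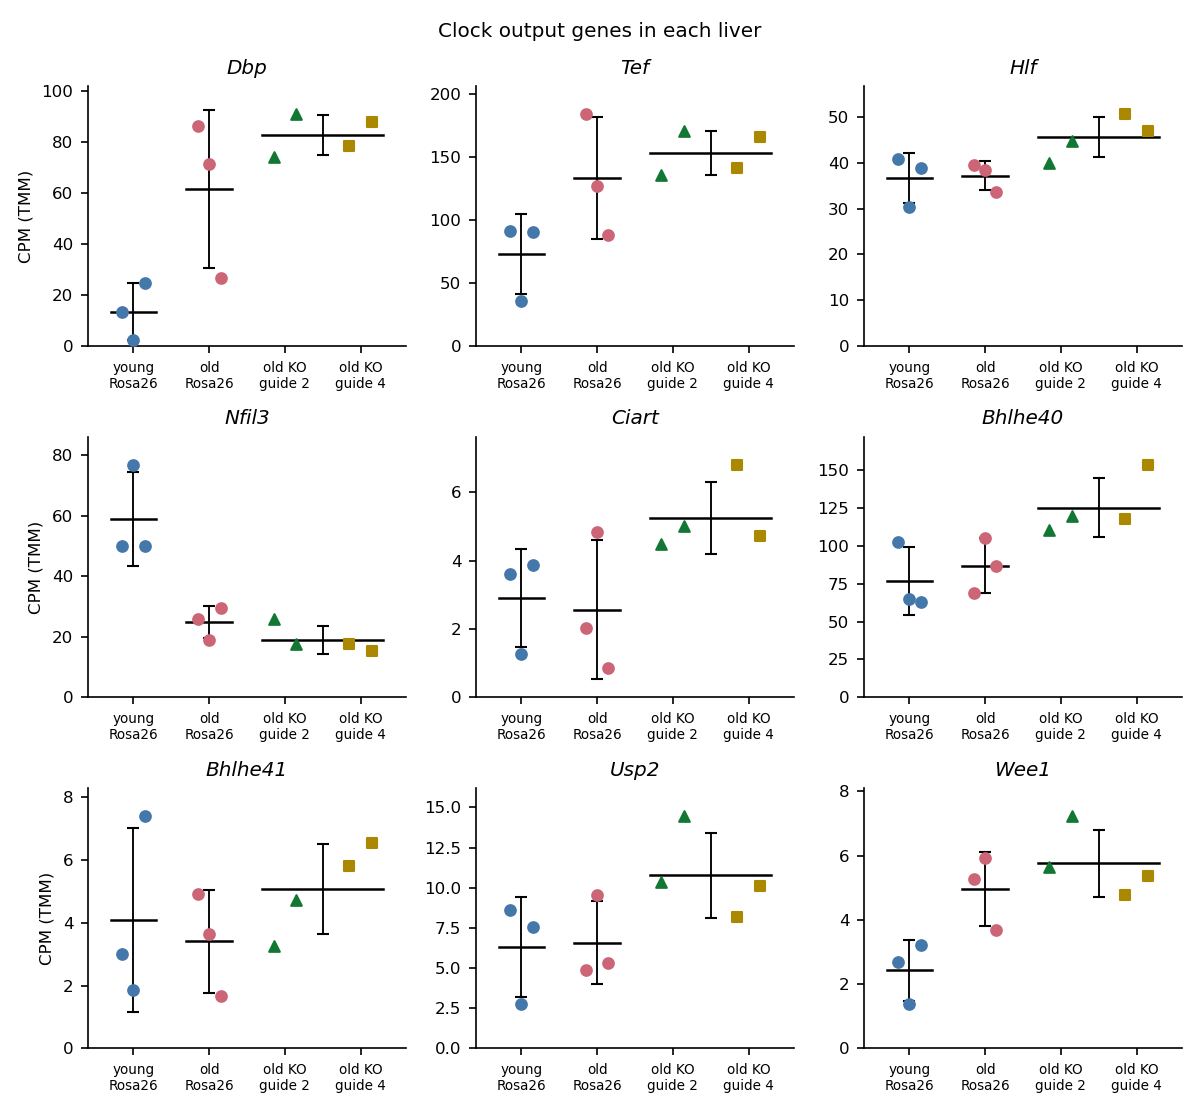
TMM-scaled CPM of each member (vertical axes, each from 0) in every liver, with young Rosa26, old Rosa26 and the 2 knockout guides side by side, a horizontal line at the group mean and bars of 1 SD (3 young, 3 old control and 4 knockout livers). Nfil3 is at 49.9 or above in all 3 young livers and at 29.5 or below in all 7 old livers, while Dbp is at 24.7 or below in the young livers and at 26.7 or above in the old ones.

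The balance of activators to repressor was compared per length of exon, since D-box activators and NFIL3 share their sites. The summed CPM per kilobase of Dbp, Tef and Hlf divided by that of Nfil3 was 0.898, 0.265 and 1.04 in young livers, 4.58, 4.87 and 1.73 in old controls and 5.93, 7.65, 3.79 and 6.78 in livers labelled knockout. The ratio was above that of every young liver in each of the 7 old livers, with old control replicate 3 closest to the young ones. It is a ratio of RNA levels of genes that were tested singly above, and it carries no test of its own.

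**Figure D2:**
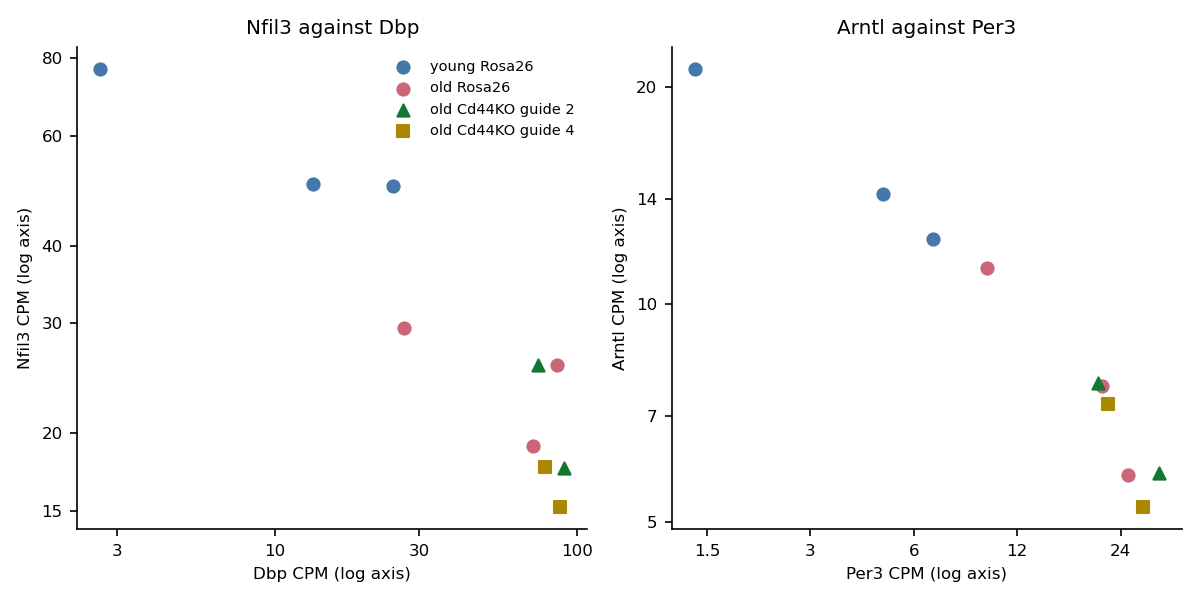
CPM of Nfil3 against Dbp (left) and of Arntl against Per3 (right) in each of the 10 livers, on log axes, coloured by group. Young replicate 2 is at the upper left of both panels (Dbp 2.64 and Nfil3 76.8 CPM), and old control replicate 3 (Dbp 26.7 and Nfil3 29.5 CPM) lies between the other old livers and the young ones.

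The E-box repressors showed no called change with age. Ciart (chr3:95878503-95882251, minus strand), which encodes CHRONO, a repressor of CLOCK and BMAL1, was at 3.61, 1.25 and 3.86 CPM in young, 2.02, 4.83 and 0.859 CPM in old control and 6.80, 4.71, 4.47 and 5.02 CPM in livers labelled knockout. The old controls spread over the whole young range and beyond it on both sides. Its age difference was -0.18 on the log2 scale with an interval of -1.36 to 1.01.

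Bhlhe40 (chr6:108660629-108666925, plus strand) encodes DEC1, which competes for E-boxes, and was at 102, 64.6 and 62.7 CPM in young, 69.0, 105 and 86.5 CPM in old control and 118, 153, 110.1 and 119.5 CPM in livers labelled knockout. The livers labelled knockout lay above all 6 control livers of both ages. Against young the log2 fold change was 0.71 (SE 0.21, edgeR adjusted p = 0.0498), just past the threshold, and it was past it in 3 of 12 alternatives. Among single libraries the call was lost without young replicate 2 (adjusted p = 0.189) or 3 (0.158) and without knockout replicates 1 to 4 in turn (from 0.0612 to 0.122).

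Bhlhe41 (chr6:145858243-145865558, minus strand), which encodes the related DEC2, was at 2.999, 1.85 and 7.41 CPM in young, 4.92, 3.65 and 1.67 CPM in old control and 5.81, 6.54, 3.25 and 4.73 CPM in livers labelled knockout. All groups overlapped. The age difference was -0.26 on the log2 scale, with an interval of -1.36 to 0.84. Over 19.1% of its exonic length a gene model on the opposite strand overlaps it.

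Of the enzymes, Wee1 rose with age and Usp2 did not pass the test. Wee1 (chr7:110122046-110143286, plus strand) encodes the kinase that holds back mitotic entry by phosphorylating CDK1, and its promoter is a known target of CLOCK and BMAL1. It was at 2.69, 1.39 and 3.23 CPM in young, 5.26, 5.93 and 3.67 CPM in old control and 4.76, 5.37, 5.65 and 7.24 CPM in livers labelled knockout. Every old liver was above every young liver. The age difference was 1.02 on the log2 scale (SE 0.31, interval 0.34 to 1.70, edgeR adjusted p = 0.0375) and that of livers labelled knockout against young was 1.23 (SE 0.29, adjusted p = 0.0293). The age call was lost without young replicate 1 (0.0757) or 2 (0.122) and without old control replicate 1 (0.0705) or 2 (0.123). That against young was lost without each young replicate in turn and without knockout replicate 2, 3 or 4 (from 0.0565 to 0.111).

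Usp2 (chr9:44067021-44095627, plus strand) encodes a deubiquitinating enzyme known to be strongly rhythmic in many tissues. It was at 8.63, 2.77 and 7.54 CPM in young, 4.87, 9.57 and 5.29 CPM in old control and 8.19, 10.1, 10.4 and 14.5 CPM in livers labelled knockout. Its age difference was 0.06 (interval -0.80 to 0.92), and all groups overlapped.

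No member was called between livers labelled knockout and old controls, where 0% of the 13909 genes passed edgeR's adjusted threshold and 916 had an unadjusted p under 0.05. Hlf (adjusted p = 0.748) and Bhlhe40 (adjusted p = 0.744) were the 2 members with an unadjusted p under 0.05, and DESeq2 and limma voom also called 0 members. The livers labelled knockout lay wholly above the old controls for these same 2 members, a separation found for 6.1% of all genes tested, 2.84% higher and 3.26% lower. The fitted difference was positive for 8 of 9 members, with a median of 0.43 beside -0.02 for all genes, of which 45.6% were positive. The members are not independent of each other, and that count carries no test.

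The intervals of these differences remained wide. For Dbp the log2 difference was 0.43 with an interval of -0.72 to 1.58, for Nfil3 it was -0.38 with -0.86 to 0.11, and for Ciart it was 1.02 with -0.08 to 2.12. Those of Usp2 were 0.71 with -0.09 to 1.51, and those of Bhlhe40 0.53 with 0.07 to 0.98. Old control replicate 3 was the lowest of all 10 livers for Ciart and Bhlhe41 and the lowest old liver for Dbp, Tef, Hlf and Wee1. The difference of Tef, 0.20 with all livers, was -0.02 without it.

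In the comparison of livers labelled knockout with young livers, which shares the young livers with the age comparison, 3 members rose (Dbp, Wee1 and Bhlhe40) and 1 fell (Nfil3), where 11.6% of all genes were called, 6.64% higher and 4.97% lower. The groups did not overlap for 6 members, 5 higher (Dbp, Tef, Ciart, Bhlhe40 and Wee1) and 1 lower (Nfil3), beside 40% of all genes tested, 21.1% higher and 18.8% lower. Ciart, at 0.84 on the log2 scale (interval -0.26 to 1.95, adjusted p = 0.258), was separated from the young livers by a small margin, its lowest value being 4.47 against 3.86 CPM.

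**Figure D3:**
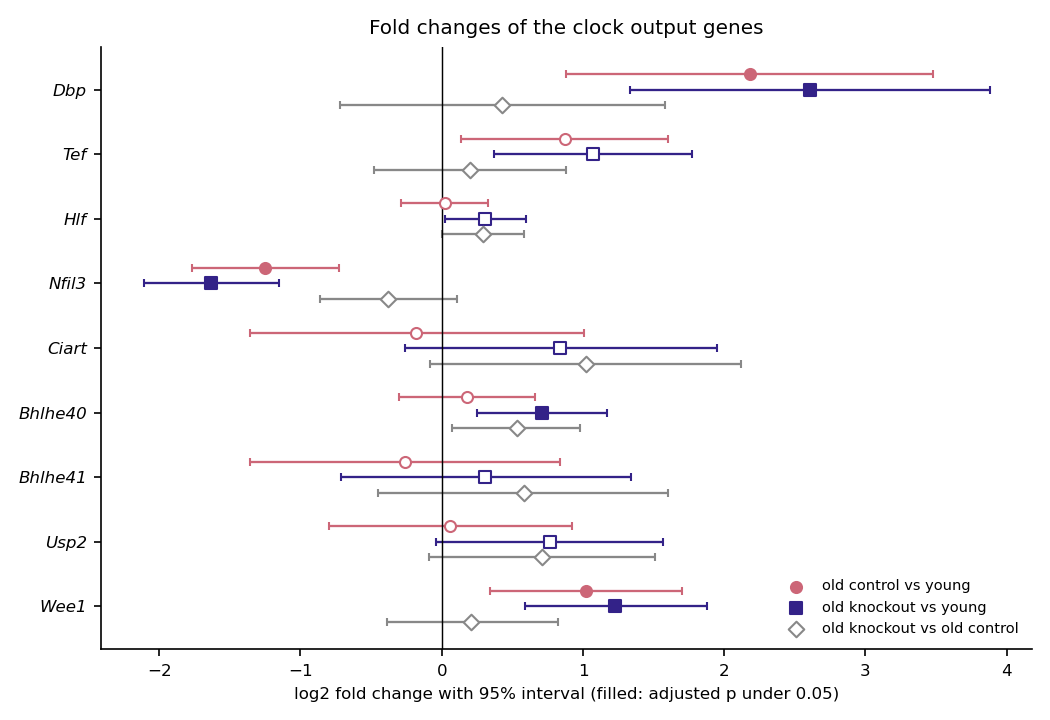
Log2 fold change of each member (horizontal axis) with its 95% interval for old control against young, old knockout against young and old knockout against old control, with filled symbols where the edgeR adjusted p was under 0.05. Dbp at 2.18 and 2.61 and Nfil3 at -1.25 and -1.63 stand apart from zero in both comparisons with the young livers, and no symbol is filled for knockout against old control.

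The 2 guides gave no called member, with 0 of 9 at an unadjusted p under 0.05 in edgeR, 0 called by DESeq2 or limma voom and 0.0212% of 14153 genes called. Dbp was at 78.3 and 87.9 CPM with guide 4 and at 74.3 and 91.0 CPM with guide 2, a difference of 0.01 with an interval of -1.57 to 1.59. For 4 members the pairs of livers did not overlap, Hlf and Bhlhe41 being higher and Usp2 and Wee1 lower with guide 4, beside 38.6% of all genes. With 2 livers per guide these intervals leave room for differences of more than 2-fold in Dbp.

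Levels of different genes were compared per kilobase of exon in the GENCODE annotation. In young livers the order began with Nfil3 at 29.1 ± 7.62 CPM per kilobase (SD, n = 3), followed by Bhlhe40 at 16.3 ± 4.76, Tef at 9.27 ± 4.04, Hlf at 5.48 ± 0.830 and Dbp at 4.54 ± 3.69. In old controls Dbp was first at 20.6 ± 10.4, followed by Bhlhe40 at 18.5 ± 3.82, Tef at 16.9 ± 6.14, Nfil3 at 12.2 ± 2.62 and Hlf at 5.56 ± 0.479. In livers labelled knockout (n = 4) Dbp was at 27.7 ± 2.63, Bhlhe40 at 26.6 ± 4.08, Tef at 19.5 ± 2.21, Nfil3 at 9.40 ± 2.27 and Hlf at 6.82 ± 0.664. Nfil3 thus led the members in the young livers and came after Dbp, Bhlhe40 and Tef in both old groups, while Dbp came last of these 5 in the young livers and led in the old ones. The ranges of Tef, Hlf and Dbp overlapped in the young livers. In the old controls the ranges of Dbp, Bhlhe40 and Tef overlapped, and that of Nfil3 overlapped those of Dbp and Tef but lay below that of Bhlhe40. In livers labelled knockout those of Dbp and Bhlhe40 overlapped, as did those of Nfil3 and Hlf. The remaining members were low throughout, with means over all 10 livers of 1.70 ± 0.689 for Usp2, 1.66 ± 0.823 for Ciart, 1.32 ± 0.511 for Wee1 and 0.637 ± 0.288 for Bhlhe41, of which the first 3 lay within their spread of each other.

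Young replicate 2 stood at an extreme for most members. It was the lowest of all 10 livers for 5 of 9 members and the highest for 1, Nfil3, while over all tested genes it was lowest for 18.3% and highest for 17.1%. Young replicate 3 was the highest of all livers for Bhlhe41 and the lowest for Bhlhe40.

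Likeness was measured as Pearson's r of log2 CPM over the 10 livers among 9960 genes with a mean of at least 5 CPM, and is given as a description. The livers share library factors and fall into age groups, so any gene that differs with age scores high. Young replicate 2 was the lowest liver for both Dbp (2.64 CPM) and Per3 (1.39 CPM), and r without it was not computed. Wee1, whose mean was below 5 CPM, was not ranked, although its r with Dbp was 0.976. Per3, a period gene of the clock, had the highest r with Dbp (0.994), followed by Tef (0.970), the kinesin gene Kif3a (0.964), Asb1 (0.956) and Nr1d2, which encodes REV-ERB beta (0.956). The lowest were Lyrm5 (-0.969), Mvp, the major vault protein gene (-0.961), and Plscr1 (-0.960), with Arntl at rank 9957 of 9960 (-0.958). Nfil3 was most like Elovl3, a fatty acid elongase gene (0.956), Prox1, a hepatic transcription factor gene (0.952), Zfp51 (0.95), Agt, the angiotensinogen gene (0.948), and Mphosph8 (0.948). It was least like Rps6ka1 (-0.975), Ttc5 (-0.959) and Rnf152 (-0.959).

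Among the members themselves, Dbp had an r of 0.976 with Wee1, 0.970 with Tef, 0.741 with Hlf and -0.919 with Nfil3. Bhlhe40 and Bhlhe41, the DEC pair, had an r of 0.256 with each other. Per3 was at 4.90, 1.39 and 6.84 CPM in young, 25.2, 21.2 and 9.83 CPM in old control and 22.0, 27.8, 20.6 and 31.0 CPM in livers labelled knockout, which is the order seen for Dbp at each end.

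Of 15 core clock genes, 2 rose and 3 fell with age, with a median log2 fold change of -0.02. Over all tested genes 22.8% were called, 14.1% higher and 8.66% lower. Per3 rose by 2.09 (SE 0.46, edgeR adjusted p = 0.0133) and Csnk1e, a kinase that marks PER proteins for decay, by 0.82 (adjusted p = 0.0285). The call of Csnk1e was lost in limma voom (0.061), in a fit of the 2 groups alone (0.0851) and without any 1 young replicate or old control replicate 1 or 2 (from 0.0562 to 0.109). Arntl, at 14.2, 21.2 and 12.3 CPM in young and 5.80, 7.70 and 11.2 CPM in old control livers, fell by 0.95 (SE 0.27, adjusted p = 0.0318), a call lost without young replicate 1 (0.0573) or 2 (0.138) and without old control replicate 1 (0.0741) or 2 (0.102). Cry1, which encodes a repressor of CLOCK and BMAL1, fell by 0.89 (adjusted p = 0.0129), and Clock fell by 0.48 (adjusted p = 0.0207). Per1, at -0.25, Per2, at -0.02, Nr1d1, at 0.50 (adjusted p = 0.0561), and Nr1d2, at 0.69 (adjusted p = 0.0562), did not pass. The number called was 1 without young replicate 2, 2 without old control replicate 2, 3 without young replicate 1 or old control replicate 1, and 8 without old control replicate 3.

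In livers labelled knockout against young, 2 core clock genes rose in edgeR, Per3 by 2.53 (adjusted p = 0.0139) and Cry2, a second cryptochrome, by 0.68 (adjusted p = 0.031). There 2 fell, Arntl at -1.28 (adjusted p = 0.0185) and Clock at -0.52 (adjusted p = 0.0238). Over all tested genes 11.6% were called in this comparison, 6.64% higher and 4.97% lower. Per2, at 0.61, and Per1, at 0.02, did not pass. The call of Per3 was lost without young replicate 2 (adjusted p = 0.0514). That count of 4 was 0 without young replicate 2, 1 without knockout replicate 2 or 4, and 2 without young replicate 1 or 3 or knockout replicate 3. Between livers labelled knockout and old controls 0 of 15 were called in edgeR, with 2 at an unadjusted p under 0.05.

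**Figure D4:**
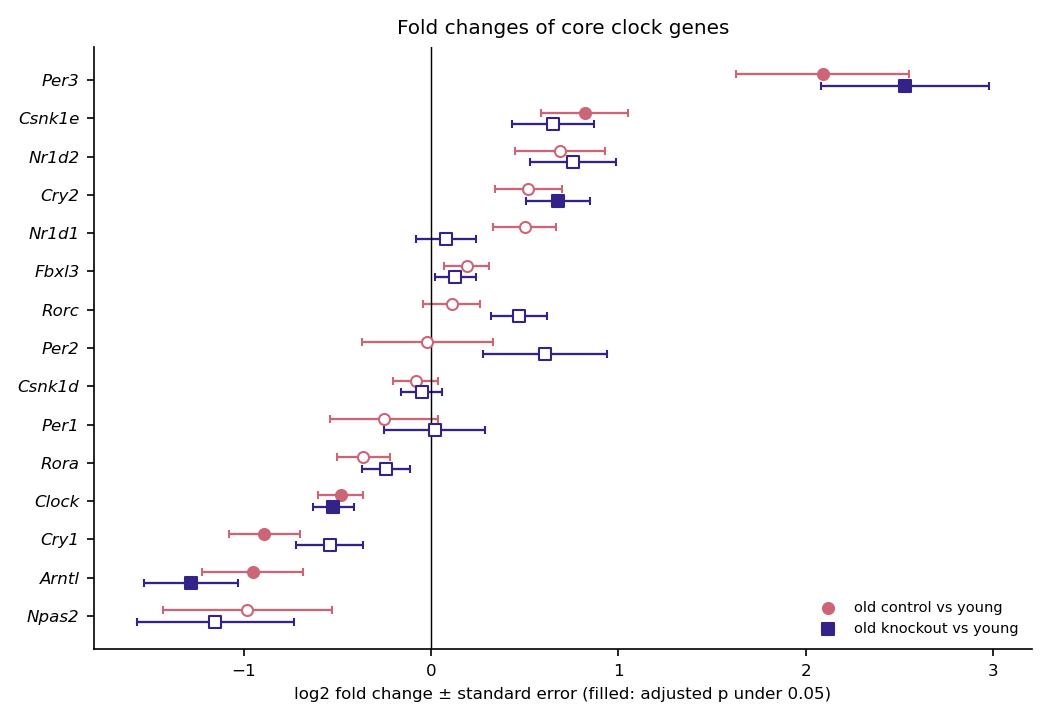
Log2 fold change with its standard error for 15 core clock genes (rows, ordered by the age difference) in old control against young and old knockout against young, filled where the edgeR adjusted p was under 0.05. Per3 at 2.09 and 2.53 lies at the far right, and Arntl at -0.95 and -1.28 is among the lowest.

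Genes reported to lie downstream of the PAR factors in liver, among them cytochromes, Alas1 and acyl-CoA thioesterases, were counted next. Of these 16 genes 1 rose with age and 0 fell, with a median of -0.22, and 12 of the 16 fitted values were negative. Of all tested genes 14.1% were called higher with age and 8.66% lower, and 52.4% had a positive fitted value. The gene that rose was Lpl, which encodes lipoprotein lipase, at 1.94 (SE 0.41, edgeR adjusted p = 0.0123) with age and 1.55 (adjusted p = 0.0343) in livers labelled knockout against young. Lpl was at 18.8, 15.4 and 14.2 CPM in young and 41.4, 109.9 and 33.8 CPM in old control livers, the highest being old control replicate 2, which was also the highest liver for the summed Kupffer cell and macrophage markers (1172 CPM) and neutrophil markers (220.4 CPM). Without that liver the log2 fold change was 1.22 with an adjusted p of 0.031. The age call of Lpl was lost without young replicate 2 (adjusted p = 0.0593), and the other without each young replicate in turn or without knockout replicate 2, 3 or 4 (from 0.068 to 0.133). The age count was 2 without old control replicate 1 and 4 without old control replicate 3. Alas1, the rate-limiting enzyme of haem synthesis, had values of -1.57 (adjusted p = 0.0879) and -1.89 (adjusted p = 0.0535) in the same comparisons.

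Of 20 other rhythmic liver genes, 2 rose and 7 fell with age, with a median of -0.65. The shares over all tested genes were 14.1% higher and 8.66% lower. Noct, a rhythmic phosphatase gene, was among those that rose, by 1.91 (adjusted p = 0.0103). Tsku fell by 1.66 (adjusted p = 0.00981), Elovl3 by 1.35 (adjusted p = 0.00926), Slc45a3 by 1.19 (adjusted p = 0.00667) and the phosphatidate phosphatase gene Lpin1 by 0.99 (adjusted p = 0.0152). Elovl3 was at 261, 414 and 335 CPM in young, 156, 79.3 and 159.9 CPM in old control and 106, 90.4, 95.6 and 90.7 CPM in livers labelled knockout, with no overlap between young and old. In livers labelled knockout against young 1 of the 20 rhythmic genes rose and 4 fell, Elovl3 at -1.82 among them. The shares over all tested genes were 6.64% higher and 4.97% lower there. The age count of 9 was 5 without young replicate 2, and the count of 5 was 2 without any 1 of the young replicates or without knockout replicate 2, and 3 without knockout replicate 3 or 4.

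Because WEE1 acts on CDK1, the genes around mitotic entry were also counted. Of 10 tested partners 6 rose with age and 0 fell, with a median of 1.04. Of all tested genes 14.1% were called higher and 8.66% lower. The 6 called by edgeR were Ccnb1 (3.21, adjusted p = 0.0197), Plk1 (2.29, adjusted p = 0.0175), Cdc25b (1.86, adjusted p = 0.0107), Cdk1 (1.47, adjusted p = 0.0403), Pkmyt1 (1.30, adjusted p = 0.0174) and Cdk2 (0.78, adjusted p = 0.0272). Levels were low, Ccnb1 being at 0.367, 0.132 and 0.253 CPM in young and 0.393, 3.97 and 2.81 CPM in old control livers, so that old control replicate 1 was close to the young livers. The young values of Ccnb1 lie near the floor of 0.138 to 0.190 CPM, so the size of its fold change is uncertain. With fewer than 10 counts in every young liver, Ccnb1 passed the filter through old livers alone. Its call in either comparison with the young livers therefore adds no support to the counts. For Cdk1 the groups overlapped, with old control replicate 1 at 1.82 CPM and young replicate 1 at 2.08 CPM. The count was 0 without young replicate 2, 1 without old control replicate 2, 3 without young replicate 3 and 3 with limma voom. In livers labelled knockout against young 3 rose (Ccnb1, Plk1 and Pkmyt1), beside 6.64% of all tested genes called higher. This count of 3 was 0 without any 1 young replicate, without knockout replicate 2, 3 or 4, and with limma voom.

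Markers of other cells moved with age beside these results. In whole liver a change in the number of cells of a type and a change in RNA per cell cannot be told apart. Of all tested genes 14.1% were called higher with age and 8.66% lower, the shares against which each marker list is to be read. The summed level of 5 Kupffer cell and macrophage markers was 171 to 239.7 CPM in young, 330.4 to 1172 in old control and 271 to 571 in livers labelled knockout, and all 5 rose with age. Of the 5 endothelial markers 4 rose with age (summed level 91.9 to 137 CPM in young, 188 to 212 in old control and 108 to 165 in livers labelled knockout), and of the 5 stellate cell markers 3 rose (129.5 to 199.6, 255 to 374 and 207 to 249 CPM). T cell markers summed to 1.29 to 1.85, 2.24 to 14.3 and 5.66 to 11.5 CPM, with 3 of 4 called higher with age, and B and plasma cell markers to 3.17 to 6.98, 6.87 to 29.0 and 17.3 to 25.9 CPM, also with 3 of 4. Neutrophil markers summed to 3.23 to 8.57, 12.6 to 220.4 and 7.21 to 19.6 CPM. In old control replicates 1 to 3 the sums were 14.9, 220.4 and 12.6 CPM, so the upper end came from replicate 2. Of the 5 markers 2 were at 0 in every young liver, and 3 of 3 tested were called higher. Ngp, among these 3, was below the floor in the young livers, at 0.0612, 0.132 and 0.0634 CPM. It therefore passed the filter through old livers alone, and its call adds no support to this count. Cholangiocyte markers summed to 48.9 to 105, 93.6 to 133 and 80.8 to 165 CPM, with 0 of 5 called. Of the 5 hepatocyte markers 1, Tat, fell with age (adjusted p = 0.0479), a call that missed the threshold with limma voom, with DESeq2-type size factors, without the filter on low counts, in a fit of the 2 groups alone and without young replicate 1 or 2 or old control replicate 1 or 2. The part of these cell types in the differences of Dbp, Nfil3 and Wee1 was not tested.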

How the data were processed

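PolyA RNA of 10 livers was made into libraries with the Watchmaker kit and read as 75-base pairs on an AVITI instrument, per the labels' protocols. The authors deposited raw counts per gene symbol, with no normalization. The submitters' processing notes name FastQC 0.11.8, Trim Galore 0.4.4, STAR 2.5.3a, HOMER and the build mm10; gene models and strandedness of the counting are not given in the sources used here. Counts were tested with edgeR 4.0.16 (R 4.3.3): quasi-likelihood fit over all 10 livers with 1 coefficient per group (per guide where guides are compared), TMM factors, filterByExpr (minimum count 10, minimum total 15), Benjamini-Hochberg over all genes tested, with calls at adjusted p under 0.05. Standard errors were taken as log2 fold change over the square root of F. Likeness used log2 CPM with a prior count of 2. Alternatives were DESeq2 1.42.0, limma 3.58.1 voom, DESeq2-type size factors, no filter, only the groups compared, and each liver left out.

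The members and lists were chosen with earlier results of these data known. Named by rule were all members, up to 6 called genes of each list by size of change, Arntl, Per1, Per2, Nr1d1 and Nr1d2 in any case, and the 5 most and 3 least like genes of Dbp and Nfil3; Alas1, Sphk2 and Cyp2a5 were named after their values were seen. The values of 1 listed gene are not reported here. Positions and exon lengths are those of GENCODE M21 on GRCm38. Livers of each group differed by more than counting noise (chi-square per degree of freedom at least 20.3). On simulated counts for 13909 genes the age comparison recovered 54% of genes changed by 1 on the log2 scale and 97% of those changed by 2. For knockout against old control these shares were 82% and 98%. They describe the simulated spread and are not the power for members with wide standard errors. In the real counts of that comparison the SE was 0.52 for Dbp and 0.50 for Ciart. Ciart, at 1.02, had an edgeR adjusted p of 0.753.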

Additional observations from a re-analysis of the deposited data

Results flagged for a closer look

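Among the livers labelled knockout, Mertk, a phagocytic receptor gene, was higher in replicate 2, at 15.7 CPM, than in the others, at 10.6 to 11.4 CPM, with a gap of 0.841 of the range of the 4 livers. Per1 was lower in replicate 1, at 14.3 CPM, than in the others, at 30.2 to 33.3 CPM, with a gap of 0.838 of the range. Gaps were examined for 41 genes in this group, and chance alone is expected to give 2.05 such gaps.

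Cyp2a5, a cytochrome P450 gene reported downstream of the PAR factors, differed between the guides. The 2 livers of guide 4 held 253 and 382 CPM, and those of guide 2 held 1515 and 1416 CPM. On the log2 scale guide 4 minus guide 2 was -2.21 (SE 0.26), and the adjusted p of edgeR's test was 0.0334. That call rests on 2 livers per guide, and Cyp2a5 was named after its values were seen. The young livers were at 558, 384 and 612 CPM and the old controls at 401, 451 and 460.3 CPM. Cyp2a5 has a near-identical neighbour, Cyp2a4, with which counting could split reads, so this value is uncertain.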

How the results depend on the processing

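Members had at least 18 counts in every liver, and Ciart, with 18 and 19 in its lowest livers, carries the most counting error. With age 3 members were called, and the number was 1 when only the compared groups were fitted (1192 genes called in place of 3172), 4 with DESeq2, Tef being the addition, and 1 to 4 when single livers were left out. Without young replicate 2 the age comparison called 396 genes, without old control replicate 2 it called 1032, without young replicates 1 and 3 1690 and 1549, and without old control replicate 3 5327. For knockout against young, with 1614 genes called, 4 members were called and 1 to 3 when single livers were left out, with 5 for DESeq2 (2803 genes) and for only the compared groups (4223 genes), and limma voom called 969 genes. Without young replicate 2 this comparison called 56 genes, and between 184 and 1652 without another liver. Knockout against old control called 0 members in each alternative (genes: 8 with DESeq2, 3 without old control replicate 1), and guide 4 against guide 2 also 0 (genes: 74 with DESeq2, 10 without the filter, 36 with only these groups, 0 without any 1 knockout liver).

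Several values that did not pass changed sign when single livers were left out. With age, Hlf ranged from -0.10 to 0.10 (negative without young replicate 2, and at -0.03 and -0.01 without old control replicates 1 and 2), Usp2 from -0.32 to 0.35 (negative without young replicate 2, -0.30, or old control replicate 2), Ciart from -1.02 to 0.23 (positive without young replicate 3, 0.07, or old control replicate 3), Bhlhe41 from -0.62 to 0.48 (positive without young replicate 3 or old control replicate 3, 0.06) and Per2 from -0.22 to 0.25 (positive without the same 2 livers). In knockout against old control Tef ranged from -0.02, without old control replicate 3, to 0.51. In knockout against young Bhlhe41 ranged from -0.04, without young replicate 2, to 1.06, Per1 from -0.13 to 0.24 (-0.03 with limma voom), and Nr1d1 was at -0.03 without young replicate 2. Between guides Dbp ranged from -0.13 to 0.16, Tef from -0.15 to 0.18 and Ciart from -0.01 to 0.52. The cause was not tested. No paired analysis was possible because replicate numbers follow record order and tie no liver to another.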

Other observations

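Glucocorticoids are a second rhythmic signal to the liver, and 12 genes that they are known to induce were counted. With age 1 rose and 4 fell, with a median log2 fold change of -0.60 beside 0.04 for all genes. Of all tested genes 14.1% were called higher and 8.66% lower. Mertk rose by 1.07 (edgeR adjusted p = 0.00814), while Cdkn1a, which encodes the cell cycle inhibitor p21, fell by 1.97 (adjusted p = 0.00667), Fkbp5, a chaperone of the receptor, by 1.51 (adjusted p = 0.00798), Tat by 0.84 (adjusted p = 0.0479, not past the threshold with limma voom, DESeq2-type size factors or no filter) and Tsc22d3, which encodes GILZ, by 0.70 (adjusted p = 0.039). Fkbp5 was at 95.5, 93.8 and 143 CPM in young, 24.1, 43.7 and 48.8 CPM in old control and 48.7, 39.2, 53.1 and 46.0 CPM in livers labelled knockout, so every old liver was below every young liver. In livers labelled knockout against young 0 rose and 4 fell, Zbtb16, Cdkn1a, Fkbp5 and Tat, beside 6.64% higher and 4.97% lower over all tested genes. That count of 4 was 1 without young replicate 2 and 2 without young replicate 3. The age count of 5 was 3 without young replicate 1 or 2 or old control replicate 1.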
